A study of Sus scrofa with 24 samples.

Results

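Described here are 10 genes of glycosylphosphatidylinositol (GPI) anchor synthesis and remodelling, out of 20674 genes in the deposited table of pig intestinal RNA. They are PIGA, PIGM, PIGB, PIGN, PIGO, PIGK, PIGT, PGAP1, PGAP2 and PGAP3, taken by their symbols. PGAP1 came first: it was picked because its ileum counts differed strongly with N-carbamylglutamate (NCG), and the others were added by pathway. Ileum NCG values of the 10 genes are therefore given as a description with no p, and PGAP1 has no p in any comparison that uses ileum libraries. Genes outside the 10 were tested in every comparison.

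The RNA came from the ileum and the colon of pregnant sows at gestation day 114, and every group shares that stage. The HN diet held 7.46% crude fibre and 0.05% NCG, the HF diet held 7.46% crude fibre and no NCG, the LN diet held 3.73% crude fibre and 0.05% NCG, and the LF diet held 3.73% crude fibre and no NCG. NCG is a stable mimic of N-acetylglutamate, which switches on carbamoyl phosphate synthetase, the entry enzyme of the urea cycle and of arginine synthesis in gut. With 4 diets in 2 tissues there were 8 groups of 3 libraries, 24 in all, drawn from a trial with 100 sows per diet. The labels do not say whether the 3 libraries came from separate sows, so the p-values measure the spread between libraries, which may be technical. Breed and age of the sows are not used here.

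A GPI anchor is a glycolipid that holds many enzymes, receptors and adhesion proteins to the outer face of the plasma membrane. It is built on phosphatidylinositol in the endoplasmic reticulum by stepwise addition of glucosamine, mannose and ethanolamine phosphate, and a transamidase then joins it to the carboxyl end of the protein. Afterwards the inositol is deacylated and the fatty acids are exchanged, which lets the protein leave for the cell surface and enter ordered membrane domains. In the intestine, intestinal alkaline phosphatase of the brush border is a well-known GPI-anchored protein.

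Library totals lay between 11951729 and 19896941 counts, and members held between 80 and 2543 counts in a library. All 10 members passed the filter on low counts in both tissues. Several libraries stood apart. Colon HN 1 and colon LF 2 had 50.2 and 18.9 CPM (counts scaled to a common library size by TMM) of EPCAM, the epithelial adhesion molecule, against 333 to 1239 CPM in the other 10 colon libraries. Their summed smooth muscle markers reached 96041 and 104951 CPM, and the other 10 colon libraries spread widely, from 1477 CPM in LN 3 to 81831 CPM in LF 1. Among ileum libraries, HN 2, HF 2 and LF 1 held 827, 4262 and 8419 CPM of FABP6, the bile acid carrier of ileal enterocytes, and the other 9 held 0 to 38.0 CPM. SLC10A2, of the same marker list, went with FABP6, at 26.5, 292 and 225 CPM in these libraries. APOA4, also of that list, went the other way, at 0.386, 33.3 and 14.9 CPM, against 153 to 1330 CPM in the other 9. Ileum LN 3 had a summed adipocyte marker level of 3665 CPM, and ileum LF 3 a summed smooth muscle level of 44923 CPM. In bulk RNA of this kind, fewer cells of a type and less RNA per cell cannot be told apart.

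PGAP1 encodes the inositol deacylase of the endoplasmic reticulum that acts on the anchor after it has been joined to a protein. Its gene (ID 100620753) lies on chromosome 15, at 100733552 to 100820603 of build Sscrofa11.1 on the minus strand, and its deposited length is 11062 bases. In the ileum, the values chose the gene. PGAP1 had 139, 107 and 84.6 CPM in the HN libraries, against 41.7, 41.8 and 50.7 CPM in the HF libraries. It had 170, 129 and 164 CPM in the LN libraries, against 26.4, 27.1 and 21.3 CPM in the LF libraries. All 6 ileum libraries with NCG lay above all 6 without it, and the HF libraries lay above the LF libraries.

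In the colon, whose values were not among those that picked the gene, PGAP1 had 58.1, 101 and 57.9 CPM in the HN libraries, against 32.6, 54.2 and 41.7 CPM in the HF libraries. It had 82.4, 74.9 and 91.5 CPM in the LN libraries, against 18.8, 34.9 and 26.3 CPM in the LF libraries. The 6 colon libraries with NCG, at 57.9 to 101 CPM, lay above the 6 without it, at 18.8 to 54.2 CPM, and the margin between HN 3 and HF 2 was small. Group means in the colon were 72.5 ± 25.1 CPM with HN, 42.8 ± 10.8 CPM with HF, 82.9 ± 8.34 CPM with LN and 26.7 ± 8.04 CPM with LF (SD, n = 3 each). In the ileum they were 110 ± 27.4 CPM with HN, 44.7 ± 5.20 CPM with HF, 154 ± 22.0 CPM with LN and 24.9 ± 3.16 CPM with LF (SD, n = 3 each). The order of the diets by mean was LN, HN, HF, LF in both tissues. Single libraries of HN and LN overlapped in both tissues, as did those of HF and LF in the colon, whereas ileum HF and LF did not overlap.

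**Figure D1:**
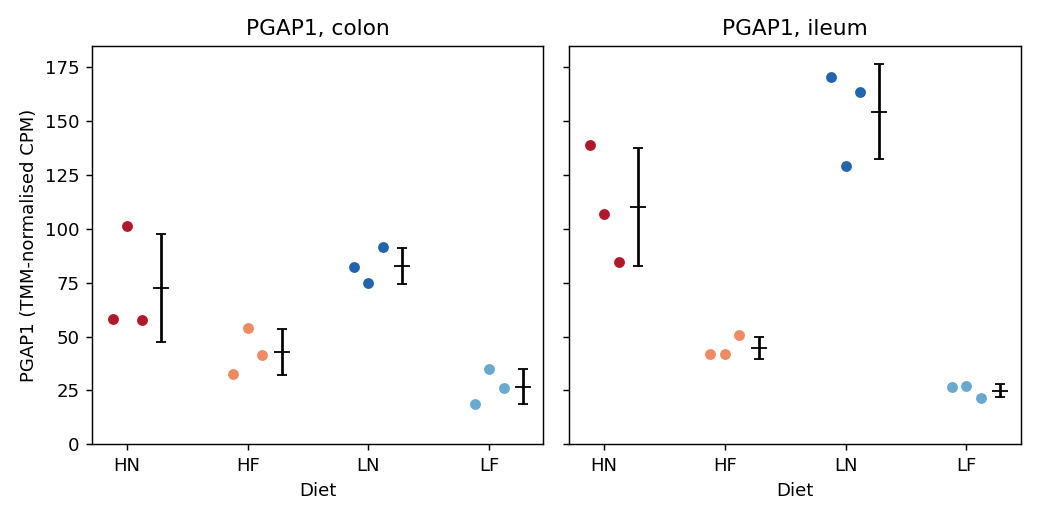
PGAP1 level in TMM-scaled CPM for each library, with colon and ileum groups HN, HF, LN and LF; points are libraries and bars are group means with SD (n = 3). Libraries with NCG sit at 57.9 to 101 CPM in the colon and at 84.6 to 170 CPM in the ileum, above those without NCG, which sit at 18.8 to 54.2 CPM and at 21.3 to 50.7 CPM.

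Averaged over both fibre levels, the log2 change of PGAP1 with NCG in the colon was 1.21 ± 0.22 (SE). By edgeR's quasi-likelihood test its unadjusted p was 0.00022, rank 17 among 15075 genes, and its adjusted p was 0.188, so it was not called at 0.05. At that threshold edgeR called 0% of colon genes for NCG (0 of 15075), with 1863 genes at an unadjusted p under 0.05, and 0 of the 10 members. DESeq2 called 497 colon genes, PGAP1 among them, with a log2 change of 1.18 and an adjusted p of 0.000141. The edgeR call turned on 1 library: without colon LF 2 the log2 change was 1.32 with an adjusted p of 0.0259, and without both colon libraries low in EPCAM it was 1.39 with an adjusted p of 0.0146. Across all alternatives for this value the adjusted p lay between 0.000141 and 0.538. For comparison, the described ileum change with NCG was 1.94 ± 0.15, and it was 1.88 to 1.98 without the ileum libraries that stood apart.

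The NCG change of PGAP1 was estimated at each fibre level. In the colon the log2 change was 1.64 ± 0.31 in LN against LF and 0.78 ± 0.30 in HN against HF (SE). The interaction, HN minus HF less LN minus LF, was -0.86 ± 0.43 and was not called (edgeR, adjusted p = 0.349). The ileum values, described only, were 2.64 ± 0.22 in LN against LF and 1.24 ± 0.21 in HN against HF, with an interaction of -1.41 ± 0.29. HF against LF gave 0.67 in the colon and 0.87 in the ileum, and HN against LN gave -0.19 in the colon and -0.54 in the ileum. Comparisons within a tissue share their groups and are not independent of each other.

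The share of counts in long genes, of which PGAP1 is one, also differed between libraries. Genes over 6000 bases took 19.8% to 25.7% of the counts in ileum HN libraries, against 17.0% to 21.1% in HF, and 19.2% to 24% in LN, against 17.5% to 21.6% in LF. In the colon they took 19.9% to 32.2% in HN, against 18.1% to 20.7% in HF, and 21.5% to 25.3% in LN, against 20.3% to 28.5% in LF. With the trend of log2 change with gene length removed, PGAP1 changed with NCG by 0.92 in the colon (edgeR, adjusted p = 0.273) and by 1.66 in the ileum. Of the 13 marker lists of other cell types, 73 markers were tested in the ileum and 75 in the colon. For NCG edgeR called 0 of them in either tissue, beside 5.85% of all tested genes in the ileum and 0% in the colon. The colon count of 0 was thus fixed by the lack of any call there. With NCG 9 of 10 smooth muscle markers had positive estimates in the colon (median log2 change 1.19), and 0 of 10 in the ileum (median -0.75). Summed smooth muscle markers spanned 1626 to 96041 CPM in colon HN, 1686 to 2458 CPM in HF, 1477 to 59663 CPM in LN and 29445 to 104951 CPM in LF, with 10 of 10 markers above 0. Their part in the PGAP1 values was not tested, beyond the fit without the 2 libraries low in EPCAM. That fit kept other libraries high in these markers, such as colon LF 1 at 81831 CPM and LN 1 at 59663 CPM.

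PIGA encodes the catalytic subunit of the complex that adds N-acetylglucosamine to phosphatidylinositol, the first step of the pathway; the gene lies on chromosome X at 11871746 to 11886519. PIGA in the ileum had 21.6, 22.2 and 20.3 CPM in HN, against 14, 12.9 and 16.2 CPM in HF. It had 25.0, 23.9 and 36.9 CPM in LN, against 13.6, 12.2 and 17.1 CPM in LF. The highest of these, LN 3, is the library with the adipocyte markers, and the libraries with NCG lay above those without NCG whether or not it is counted. The described ileum change with NCG was 0.76 ± 0.16 (log2, SE), and 0.73 without ileum LN 3 and LF 3.

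In the colon PIGA had 30.4, 26.6 and 20.6 CPM in HN, against 21.0, 17.2 and 16.9 CPM in HF, and 24.6, 27.4 and 29.5 CPM in LN, against 16.6, 23.5 and 22.1 CPM in LF. HN 3 fell below HF 1, LF 2 and LF 3, so the NCG libraries overlapped the others. The log2 change with NCG was 0.46 ± 0.15 and was not called (edgeR, adjusted p = 0.293, unadjusted p = 0.0107). PIGA was the member most like PGAP1 over the 24 libraries, with r = 0.79 for log2 CPM centred within tissue (0.86 over the 12 ileum and 0.64 over the 12 colon libraries). These points share libraries, diets and depth, and the value is a description.

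In the ileum NCG comparison, in which PGAP1 was chosen, 5.85% of all tested genes passed an adjusted p of 0.05, 5.42% as higher and 0.43% as lower (819 and 65 genes; DESeq2 called 1314 as higher and 498 as lower). PGAP1 and PIGA, 2 of the 10 members, were among the higher ones, and nothing is read from that count. They were also the only members whose 6 NCG libraries did not overlap the other 6, which was so for 5.92% of tested genes (4.73% with the NCG libraries higher). The count of members past the adjusted p of 0.05 was 1, PGAP1 alone, in 2 kinds of refit. These were without ileum HN 1, HF 1, HF 2, LF 1 or LF 2 taken singly, and without the 3 libraries high in FABP6. In the colon PGAP1 alone of the 10 did not overlap, against 1.02% of tested genes (0.504% with the NCG libraries higher). The other 8 members had described ileum changes between -0.27 and 0.49, beside a median of -0.07 over all tested genes.

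**Figure D2:**
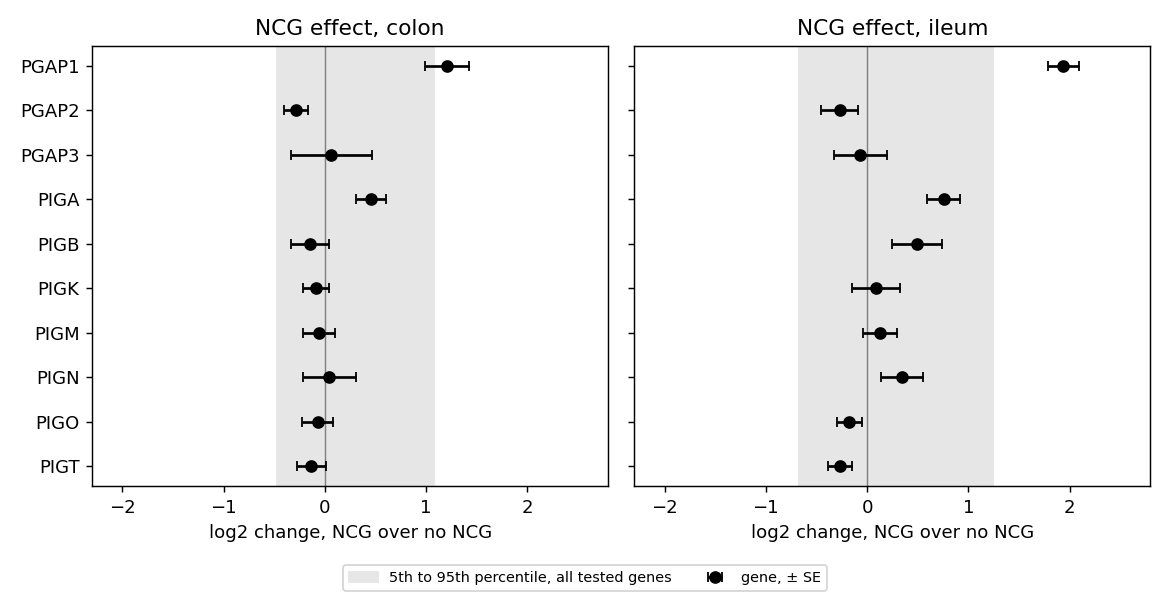
Log2 change with NCG, averaged over both fibre levels, for the 10 members in the colon and in the ileum; points are estimates and bars are SE. PGAP1 stands at 1.21 in the colon and 1.94 in the ileum, PIGA at 0.46 and 0.76, and the other 8 between -0.29 and 0.49; ileum values are a description, since PGAP1 was chosen on them.

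Neither mannosyltransferase was called with NCG in the colon. PIGM adds the first mannose and lies on chromosome 4 at 90461507 to 90464500; PIGB adds the third mannose and lies on chromosome 1 at 116492910 to 116519673, overlapping CCPG1 on the opposite strand by 8 bases. PIGM ranged over 10.6 to 18.5 CPM (median 15.5) in colon libraries with NCG, against 11.7 to 21.6 CPM (median 16.7) without it. PIGB ranged over 7.07 to 11.7 CPM (median 10.1) in colon libraries with NCG, against 8.60 to 13.7 CPM (median 10.03) without it. Both pairs of ranges overlapped widely, and the log2 changes were -0.06 ± 0.16 and -0.15 ± 0.19 (edgeR, adjusted p = 0.916 and 0.795). In the ileum PIGB ranged over 9.91 to 20.3 CPM with NCG, against 6.20 to 11.5 CPM without it, and its highest value was again that of LN 3. The described ileum changes were 0.13 ± 0.17 for PIGM and 0.49 ± 0.25 for PIGB.

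The ethanolamine phosphate transferases PIGN and PIGO act on the first and on the third mannose, and the phosphate added by PIGO is the one later linked to the protein. PIGN lies on chromosome 1 at 159317734 to 159417335 and PIGO on chromosome 1 at 235880088 to 235888338. PIGN ranged over 28.3 to 63.6 CPM (median 49.8) in colon libraries with NCG, against 23.5 to 69.0 CPM (median 52.4) without it. PIGO ranged over 32.2 to 53.2 CPM (median 41.6) with NCG, against 30.5 to 54.5 CPM (median 49.6) without it. Neither was called in the colon, with log2 changes of 0.04 ± 0.26 and -0.07 ± 0.16 (edgeR, adjusted p = 0.964 and 0.891). Their described ileum changes were 0.35 ± 0.20 and -0.18 ± 0.12.

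PIGK, the protease subunit, cleaves the attachment signal at the carboxyl end of the target protein, and PIGT is a subunit that holds the transamidase together. PIGK and PIGT were the most abundant members per length. PIGK lies on chromosome 6 at 136057996 to 136175236 and PIGT on chromosome 17 at 47735339 to 47750052. In the colon PIGK ranged over 25.0 to 34.9 CPM (median 28.1) with NCG, against 25.7 to 36.3 CPM (median 33.1) without it. PIGT ranged over 39.1 to 59.1 CPM (median 41.3) with NCG, against 34.8 to 66.2 CPM (median 49.5) without it. The colon log2 changes of -0.09 ± 0.13 for PIGK and -0.13 ± 0.14 for PIGT were not called (edgeR, adjusted p = 0.821 and 0.744). In the ileum they were described as 0.09 ± 0.23 and -0.27 ± 0.12.

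PGAP3 removes an unsaturated fatty acid from the anchor in the Golgi, and PGAP2 is needed for its replacement by a saturated one. PGAP3 lies on chromosome 12 at 22630391 to 22647820. PGAP2 lies on chromosome 9 at 6294471 to 6319317 and overlaps RHOG on the opposite strand by 906 bases; the strand setting of the counting is not given in the sources used here, so its counts may hold RHOG reads. PGAP2 ranged over 31.0 to 43.1 CPM (median 37.3) in colon libraries with NCG, against 41.1 to 52.3 CPM (median 42.5) without it. HN 3 was the NCG library that reached into the other range. The log2 change of -0.29 ± 0.12 was not called (edgeR, adjusted p = 0.357, unadjusted p = 0.0336), and the described ileum change was -0.27 ± 0.18. PGAP1 and PGAP2 thus had estimates of opposite sign in both tissues, and their ratio was not tested.

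PGAP3 was far lower in a pair of colon libraries than in the rest. It had 5.99 CPM in HN 1 and 5.37 CPM in LF 2, the colon libraries low in EPCAM, against 14.3 to 31.3 CPM (median 25.5) in the other 10. PIGN, PIGO and PIGM were also below all other colon libraries there, with 28.3 and 23.5 CPM of PIGN, 32.2 and 30.5 CPM of PIGO, and 10.6 and 11.7 CPM of PIGM. PIGB, at 11.7 and 13.7 CPM, was above all others, which reached 11.5 CPM. PIGA in HN 1, at 30.4 CPM, was the highest and PIGT in LF 2, at 34.8 CPM, the lowest of the colon libraries, while PGAP1, PIGK and PGAP2 lay inside the range of the others. PGAP3 followed PIGO (r = 0.78) and PIGN (r = 0.76) over the 24 libraries, centred within tissue, while its r with PGAP1 was 0.09. With NCG in the colon PGAP3 changed by 0.06 ± 0.40 and was not called (edgeR, adjusted p = 0.965).

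**Figure D3:**
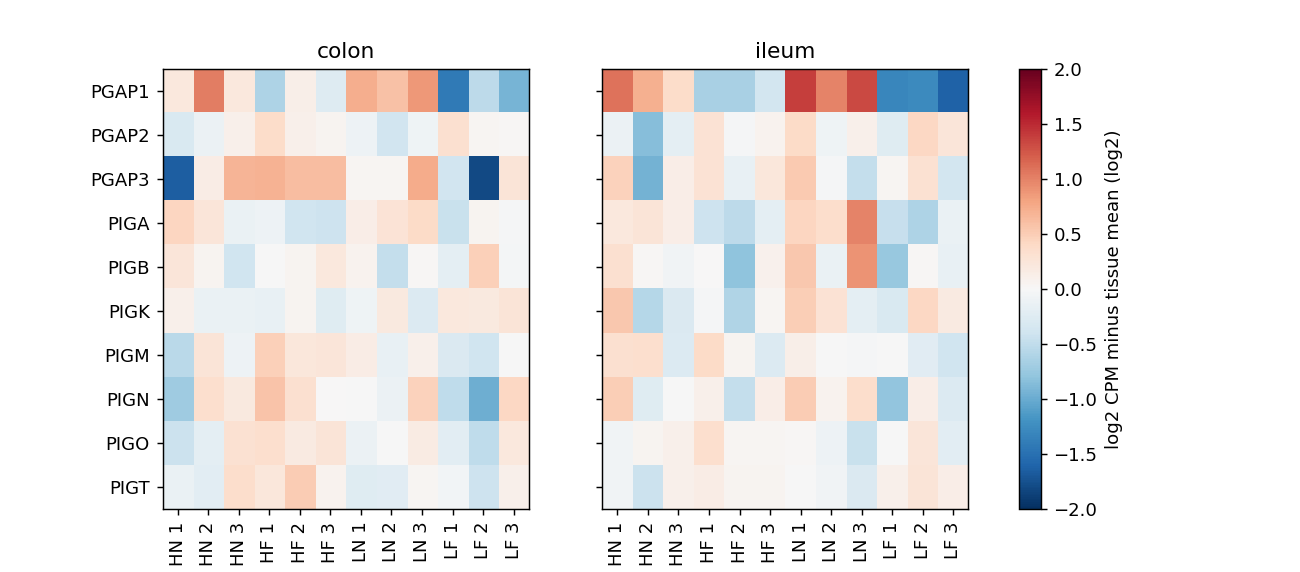
Log2 CPM of the 10 members in each of the 24 libraries, each gene centred on its mean within each tissue. PGAP1 and PIGA are above their tissue means in most libraries with NCG, and PGAP3, PIGN, PIGO and PIGM are low in colon HN 1 and colon LF 2.

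Fibre content, at 7.46% against 3.73%, was tested next. In the colon, edgeR called 0 of the 10 members, as it called 0% of all tested genes (692 at an unadjusted p under 0.05; DESeq2 called 21). The colon log2 changes ranged between -0.18 ± 0.13 for PIGK and 0.38 ± 0.40 for PGAP3, and PIGT, at 0.27 ± 0.14, had the smallest p of the 10 (adjusted p = 0.836, unadjusted p = 0.0923). PGAP1 changed by 0.24 ± 0.21 with fibre in the colon, and by 0.16 ± 0.15 in the ileum, where it is a description. In the ileum edgeR called 0 of the other 9 members and 0% of all tested genes (794 at an unadjusted p under 0.05; DESeq2 called 1). Those 9 ranged between -0.28 ± 0.18 for PGAP2 and 0.19 ± 0.17 for PIGM, with adjusted p between 0.802 and 0.995. With fibre 0 of 10 smooth muscle markers had positive estimates in either tissue, and edgeR called 0 of them. In the colon their sums were 1686 to 2458 CPM in HF, against 29445 to 104951 CPM in LF. Those of HN and LN overlapped, at 1626 to 96041 CPM and 1477 to 59663 CPM. The part of these cells in the fibre estimates was not tested, beyond the fits with libraries left out.

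The interaction of fibre and NCG was likewise not called for any of the 10 members in the colon or the 9 in the ileum, as for 0% of all tested genes in either tissue. Unadjusted p under 0.05 was reached by 2264 colon and 672 ileum genes, and DESeq2 called 67 and 26. In the colon the largest member estimates were -1.35 ± 0.80 for PGAP3, -0.86 ± 0.43 for PGAP1, -0.67 ± 0.52 for PIGN and -0.65 ± 0.32 for PIGM (log2, SE). In the ileum they lay between -0.54 ± 0.50 for PIGB and 0.01 ± 0.24 for PIGT. Colon values of PGAP3, PIGN and PIGM were lowest in HN 1 and LF 2, the libraries low in EPCAM. HN and LF both enter the interaction with a plus sign, so low values there lower the estimate. With 1 library left out, the colon estimates were -1.84 to -0.93 for PGAP3, -1.15 to -0.42 for PIGN and -0.88 to -0.48 for PIGM. The part of HN 1 and LF 2 was not tested, beyond the fits with libraries left out.

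Between tissues, member levels were close. Per kilobase of deposited length, PIGK was highest, with 21.2 ± 2.82 CPM per kb in the colon and 26.9 ± 7.19 in the ileum, followed by PIGT with 18.4 ± 3.55 and 15.4 ± 1.93 (SD over 12 libraries each). PIGO, with 9.49 ± 1.80 in the colon and 11.05 ± 1.5 in the ileum, PIGN, with 9.19 ± 2.76 and 8.39 ± 2.1, and PGAP2, with 8.34 ± 1.28 and 8.16 ± 1.76, followed within each other's spread. PGAP3 had 6.34 ± 2.71 CPM per kb in the colon and 6.49 ± 1.71 in the ileum, PIGM 5.25 ± 1.07 and 4.79 ± 0.857, and PGAP1 5.08 ± 2.42 and 7.56 ± 5.07. PIGA, with 3.90 ± 0.815 and 3.33 ± 1.19, and PIGB, with 2.88 ± 0.521 and 3.29 ± 1.10, were the lowest. The wide spread of PGAP1 is that between its diet groups. In the ileum its libraries ran from 1.92 CPM per kb, below the mean of PIGB, to 15.4 CPM per kb, about the mean of PIGT.

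**Figure D4:**
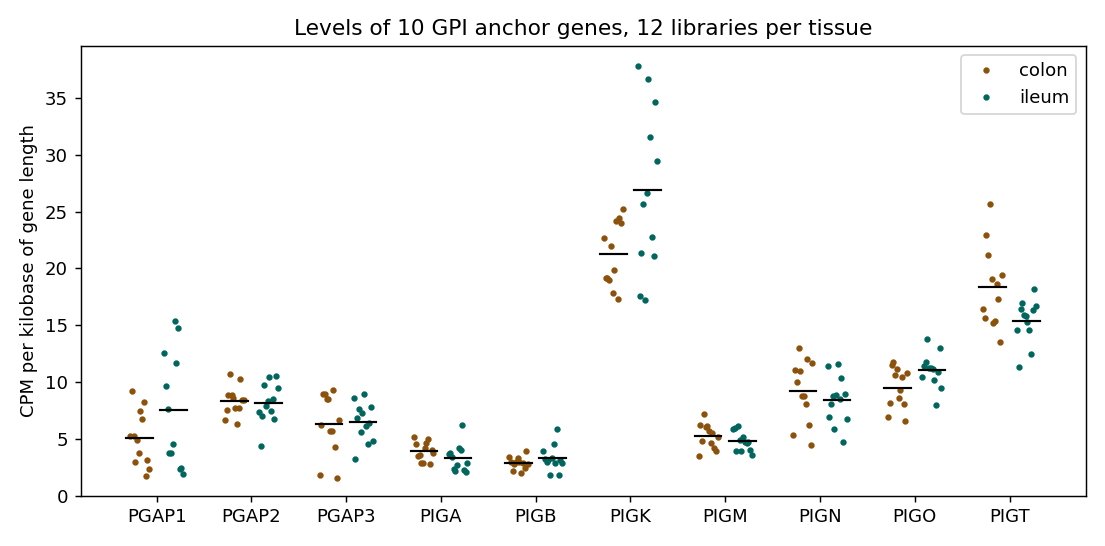
Level of each member in CPM per kilobase of gene length, colon and ileum, 1 point per library with the mean over the 12 libraries of a tissue. By mean, PIGK and PIGT are highest and PIGA and PIGB lowest in both tissues. In the ileum PGAP1 ranges over 1.92 to 15.4 CPM per kb and PIGK over 17.2 to 37.8 CPM per kb.

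In colon against ileum, edgeR called 28.4% of all tested genes, 12.5% higher and 15.9% lower, and 0 of the 9 members tested. The nearest were PIGT at 0.25 ± 0.09 (adjusted p = 0.0508), PIGA at 0.27 ± 0.10 (adjusted p = 0.0516), PIGK at -0.34 ± 0.13 (adjusted p = 0.0621) and PIGO at -0.22 ± 0.10 (adjusted p = 0.108). The other 5 lay between -0.16 and 0.13, and PGAP1, described only, at -0.37 ± 0.13. These near misses turned on the scaling and on single libraries: DESeq2 and RLE size factors each called PIGA and PIGT. PIGT was called without ileum HN 3 or colon HN 1, HN 2, HF 3 or LF 2, PIGA without ileum HF 3, LN 3 or LF 3 or colon HN 3 or LF 1, PIGK without ileum HN 2, HF 2 or LN 3, and PIGO without colon HN 3. Each of these is the call with 1 library left out, and no setting called more than 3 of the 9.

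The 5 genes whose log2 CPM most resembled that of PGAP1 over the 24 libraries, of 14030 ranked, were TBK1 (r = 0.965), PPIP5K2 (0.965), NRIP1 (0.964), ITGB8 (0.959) and ETNK1 (0.954). Within the 12 colon libraries r was 0.943, 0.957, 0.951, 0.958 and 0.928 in that order, and within the 12 ileum libraries 0.976, 0.969, 0.978, 0.964 and 0.966. TBK1 is a kinase of innate immune signalling, PPIP5K2 an inositol pyrophosphate kinase, NRIP1 a nuclear receptor corepressor, ITGB8 an integrin subunit and ETNK1 an ethanolamine kinase. Their log2 changes with NCG were 0.69, 1.25, 0.80, 1.48 and 0.75 in the colon, in the same order, against 1.21 for PGAP1. All 5 values of r rest on libraries that share diets and depth. The 5 genes were picked by r over these same libraries. High r within each tissue and positive changes with NCG therefore follow in part from that choice.

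Of 35 further symbols of the GPI pathway, covering the remaining transferase and transamidase subunits, dolichol phosphate mannose synthase, export factors and releasing enzymes, 32 were in the table. With NCG edgeR called 0 of 29 tested in the colon, where 7 estimates were positive and the median was -0.14, beside a median of 0.06 over all genes. It called 0 of 31 in the ileum, where 8 were positive and the median was -0.13, beside -0.07. The smallest p in the colon were those of PIGC (-0.33) and PIGX (-0.48), and in the ileum of PIGP (-0.51) and TMED5 (0.32). With fibre 0 of 29 were called in the colon, with PIGZ, which adds a side mannose, at 0.78, and 0 of 31 in the ileum. In colon against ileum, where 28.4% of all tested genes were called, 2 were called higher and 7 lower of 31, a share near that of all genes. The count includes GPLD1 and NOTUM, which passed the filter on low counts only through the ileum, so that a lower call in the colon is no result. Of the 29 that passed in each tissue by itself, 2 were higher and 5 lower. The share of all genes called under that narrower rule was not computed. Among the called pathway genes were PIGZ at 0.99 (edgeR, adjusted p = 0.0048) and TMEM246, the galactosaminyltransferase also named PGAP4, at -0.65.

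Of 52 symbols of GPI-anchored proteins, 50 were in the table, with FOLR1 and GFRA2 on 2 rows each, so the counts that follow are of rows. With NCG edgeR called 0 of 48 in the colon (median 0.12, 31 positive), where HYAL2 (-0.50) and GPC3 (-0.85) had the smallest p. In the ileum 1 of 48 was called, beside 5.85% of all tested genes: the neuronal adhesion protein NEGR1, at 1.36 ± 0.28 (adjusted p = 0.0167), and the median was -0.09. That call was lost with the length trend removed (log2 change 1.05, adjusted p = 0.0974) and without the libraries high in FABP6 (1.27, adjusted p = 0.0746), with estimates of the same sign. In colon against ileum 10 were higher and 9 lower of 51, beside 12.5% higher and 15.9% lower of all tested genes. Of the 46 rows that passed the filter in each tissue by itself, 9 were higher and 8 lower. For this narrower count, too, the share of all genes under the same rule was not computed. The ephrin EFNA5 was higher in the colon (1.17), at 30.3 to 60.8 CPM, against 8.60 to 34.6 CPM in the ileum. ALPL, the tissue-nonspecific alkaline phosphatase, was higher on average (3.11) but not evenly over the diets. It had 3.58 to 125 CPM in colon HN, 2.87 to 5.19 CPM in colon HF, 3.72 to 55.3 CPM in colon LN and 15.2 to 47.5 CPM in colon LF, against 1.35 to 4.07 CPM over the 12 ileum libraries. The HF group, low in ALPL, also had summed smooth muscle markers of no more than 2458 CPM in any library, and the part of these cells was not tested. Lower in the colon were the trehalase TREH (-6.81), at 0.0671 to 5.45 CPM, against 0.193 to 272 CPM in the ileum, and the neurotrophic factor co-receptor GFRA3 (-5.87), at 0.197 to 3.02 CPM, against 0.752 to 146 CPM in the ileum. The ranges of both overlapped between tissues, through low values in ileum HN, HF and LF, the groups with a library high in FABP6. Minima there were 0.193, 2.26 and 0.573 CPM for TREH and 1.03, 0.752 and 1.15 CPM for GFRA3. Ileum LN, with no such library, had 80.7 to 235 CPM of TREH and 27.2 to 91.1 CPM of GFRA3.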

How the data were processed

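Per the submitters' processing notes, reads were handled with fastp 0.22.0, HISAT2 2.1.0, then HTSeq 0.9.1, on build Sscrofa11.1; settings are not given in the sources used here. The authors deposited raw read counts per gene and library, FPKM and a gene length, another unit, in bases. The deposited FPKM follow from the counts and lengths and were not used. Counts were fitted in R 4.3.3 with edgeR 4.0.16: filterByExpr, TMM, quasi-likelihood F-tests, Benjamini-Hochberg over all tested genes (15103 ileum, 15075 colon, 15675 in all libraries), threshold 0.05. Each tissue had a model of 4 diet means; colon against ileum used 8 group means over 24 libraries, and the labels do not say whether both tissues came from the same sows. CPM are on 1 TMM scale over the 24 libraries; a prior count of 2 went into log2 CPM. The 5 genes most like PGAP1 are those with the highest r among genes with a mean log2 CPM above 0; from each list up to 4 called members, or else the 2 with the smallest p, are named. EPCAM under 100 CPM and FABP6 above 500 CPM mark the libraries left out as sets. The fits were tested on simulated data. DESeq2 1.42.0, RLE factors, no count filter, a replicate block, removal of a length trend and leaving out libraries were tried as alternatives. No sequences are shown, since no sequence file was used here. Members and lists were chosen with earlier results of these data known. Counting intervals are not given, since the spread between libraries exceeds counting error.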

Additional observations from a re-analysis of the deposited data

How the results depend on the processing

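Genes called numbered 884 for NCG in the ileum, 1812 with DESeq2 (1314 higher and 498 lower, against 819 and 65), 548 without the 2 ileum libraries high in adipocyte or smooth muscle markers (an alternative chosen after seeing the data), and 514 to 958 with 1 library left out. Members called there numbered 2, but 1 without the FABP6-high libraries and 1 to 2 with 1 library left out. PGAP1 was chosen on this comparison, so nothing is read from these member counts. For NCG in the colon the 0 genes became 497 with DESeq2, 464 without the 2 colon libraries low in EPCAM (chosen after seeing the data) and 0 to 292 with 1 left out (292 without LF 2, 2 without HN 1); the 0 members became 1, 1 and 0 to 1, in each case PGAP1. DESeq2 called 1, 26, 21 and 67 genes for ileum fibre, ileum interaction, colon fibre and colon interaction, against 0. For colon against ileum genes called stayed within 1.5 times of 4453 in all settings, and members called numbered 2 with RLE factors or DESeq2, 1 with the length trend removed, without the FABP6-high or without the EPCAM-low libraries, 3 without the adipocyte and smooth muscle libraries, and 0 to 2 with 1 left out; the cause was not tested.

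Estimates near 0 changed sign. For ileum fibre PGAP3 was -0.0085 with the replicate block and -0.15 without the adipocyte and smooth muscle libraries, which put PIGB at 0.0039 and PIGN at 0.0138; without the FABP6-high libraries PIGN was 0.0401 and PIGT 0.0055. For the ileum interaction PIGK was 0.0074 with RLE factors, 0.0068 with DESeq2, 0.0731 with the length trend removed and 0.26 without the FABP6-high libraries, and without the adipocyte and smooth muscle libraries PIGO was -0.0469 and PIGT -0.0825. For colon NCG, length trend removed, PIGK was 0.0554 and PIGN -0.0852; for the colon interaction without the EPCAM-low libraries PIGA was -0.13 and PIGB -0.26. For colon against ileum PGAP2 was -0.0698 without the FABP6-high and PGAP3 0.14 without the EPCAM-low libraries. With 1 library left out, estimates crossed 0 for ileum NCG in PGAP3 (-0.22 to 0.09) and PIGK (-0.12 to 0.20); for colon against ileum in PGAP2 (-0.0098 to 0.0887) and PGAP3 (-0.21 to 0.043); for colon NCG in PGAP3 (-0.18 to 0.31), PIGM (-0.18 to 0.0183), PIGN (-0.10 to 0.28) and PIGO (-0.19 to 0.0267); for colon fibre in PIGB (-0.0338 to 0.15); for the colon interaction in PGAP2 (-0.0527 to 0.15), PIGA (-0.0279 to 0.26) and PIGB (-0.12 to 0.30); for ileum fibre in PGAP3 (-0.14 to 0.18), PIGN (-0.14 to 0.10) and PIGT (-0.12 to 0.0296); and for the ileum interaction in PGAP3 (-0.56 to 0.0737), PIGK (-0.43 to 0.21), PIGO (-0.12 to 0.12) and PIGT (-0.13 to 0.17). PGAP1 with NCG in the colon kept its sign, at 1.04 to 1.32.

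The labels do not say whether replicate numbers pair the samples. Same-numbered colon libraries of different diets had a mean r of 0.09, over 0.1 in 7 of 18 pairs. Same-numbered ileum and colon libraries of 1 diet had a mean r of 0.01, over 0.1 in 5 of 12 pairs. Those with different numbers had a mean r of -0.007, over 0.1 in 9 of 24 pairs. Values were centred within groups of 3 libraries, so these r cannot settle the pairing. With the numbers as a replicate block PGAP1 with NCG in the colon was 1.24 (adjusted p = 0.0886), and the block changed no call of a member.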
